A study of Drosophila melanogaster with 6 samples.

Results

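Box C/D small nucleolar RNAs (snoRNAs) that guide 2′-O-methylation of ribosomal RNA were described in the midgut of female fruit flies (Drosophila melanogaster). The guides were chosen by name, as every listed transcript whose gene symbol in the BDGP6 annotation starts with snoRNA:Me18S or snoRNA:Me28S. There were 68 of them among the 527 listed transcripts that the annotation holds by identifier, 19 named for a base of 18S rRNA and 49 named for a base of 28S rRNA. The symbol also gives the target base and its position, so Me28S-G980 is the guide named for the G at position 980 of 28S rRNA, and a final letter marks copies named for the same base. The snoRNA: prefix is left out from here on. The rule uses no measured value. The annotation holds 75 such genes, and 7 of them were not analysed here.

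A box C/D snoRNA carries 2 short conserved motifs, box C and box D, and next to box D a stretch that pairs with the target RNA. Fibrillarin, the methyltransferase of the particle, places the methyl group on the ribose of the target nucleotide opposite the fifth position upstream of box D. The particle also holds the proteins Nop56, nop5 and hoip. In flies most of these snoRNAs lie in introns and are released as the host transcript is spliced and the excised intron is trimmed, so RNA polymerase II makes them as part of the host. Several hosts are Uhg genes (U snoRNA host genes), whose spliced RNA codes for no known protein and whose introns carry 1 snoRNA after another. Other hosts encode ribosomal proteins and translation factors. Methylated nucleotides cluster in the parts of the rRNA that work in decoding and peptide bond formation, and the midgut, which is renewed by dividing stem cells, makes new ribosomes throughout adult life.

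The study asked which short RNAs respond when RNA polymerase III (Pol III) is partly lost, and compared 3 libraries of Polr3D EY/+ flies with 3 wild-type libraries. The mutant flies, labelled dC53EY22749, carried 1 copy of a P-element insertion in Polr3D, which encodes a subunit found only in Pol III, and the study states that flies with 2 such copies do not survive. Wild-type flies were White Dahomey, and the insertion had been backcrossed into the same outbred background, so both genotypes share it. All flies were females about 1 week old with no further treatment, and the study extracted RNA from pools of dissected midguts. No label says that the libraries came from separate cultures, so the p-values measure the spread between these libraries, which may be technical. The study counts several snoRNAs among Pol III targets without naming them in the sources used here, so they could not be set apart.

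Library totals over all listed transcripts ran from 13465392 to 16891428 estimated counts, and the 68 guides together held 128213 to 172403 counts in a library. Levels are given in CPM, each guide's count per 1000000 counts of the library, after TMM scaling, which sets libraries on a common scale from the bulk of their transcripts, with factors from 0.910 to 1.13. The table lists transcripts shorter than 300 bases and holds no mRNA, so neither the tissue nor the Polr3D level could be checked against marker genes. As in any bulk sample, fewer cells with a guide and less of the guide in each cell cannot be told apart. Mutant replicate 3 stood apart from the other mutant libraries. In it, 18 of the 68 guides (26.5%) lay more than 0.5 on a log2(CPM + 1) scale from the mean of mutant replicates 1 and 2, 10 above and 8 below. In each of the other 5 libraries, 2 to 7 guides lay that far from the mean of the other libraries of their genotype. Over the 411 transcripts tested the same count was 20.9% for mutant replicate 3 and 8.52% to 12.4% for the others. Results that rest on mutant replicate 3 are given with and without it.

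The guides differed far more among themselves than between genotypes. Their lengths ran from 46 to 113 bases with a median of 79, and the level per length, in CPM per 100 bases averaged over the 6 libraries, ran from 2.36 for Me18S-A28a to 1402 for Me28S-G980. Most of this range lay among single guides rather than between the rRNAs: the median level per length was 81.97 CPM per 100 bases over the 19 Me18S guides and 86.3 over the 49 Me28S guides. The highest Me18S guide, Me18S-A1806, reached 287 CPM per 100 bases, and 10 Me28S guides lay above it. Across all 68 guides Pearson's r between length and the log2 level per length was 0.054, a description over guides of the same libraries that are not independent replicates.

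**Figure D1:**
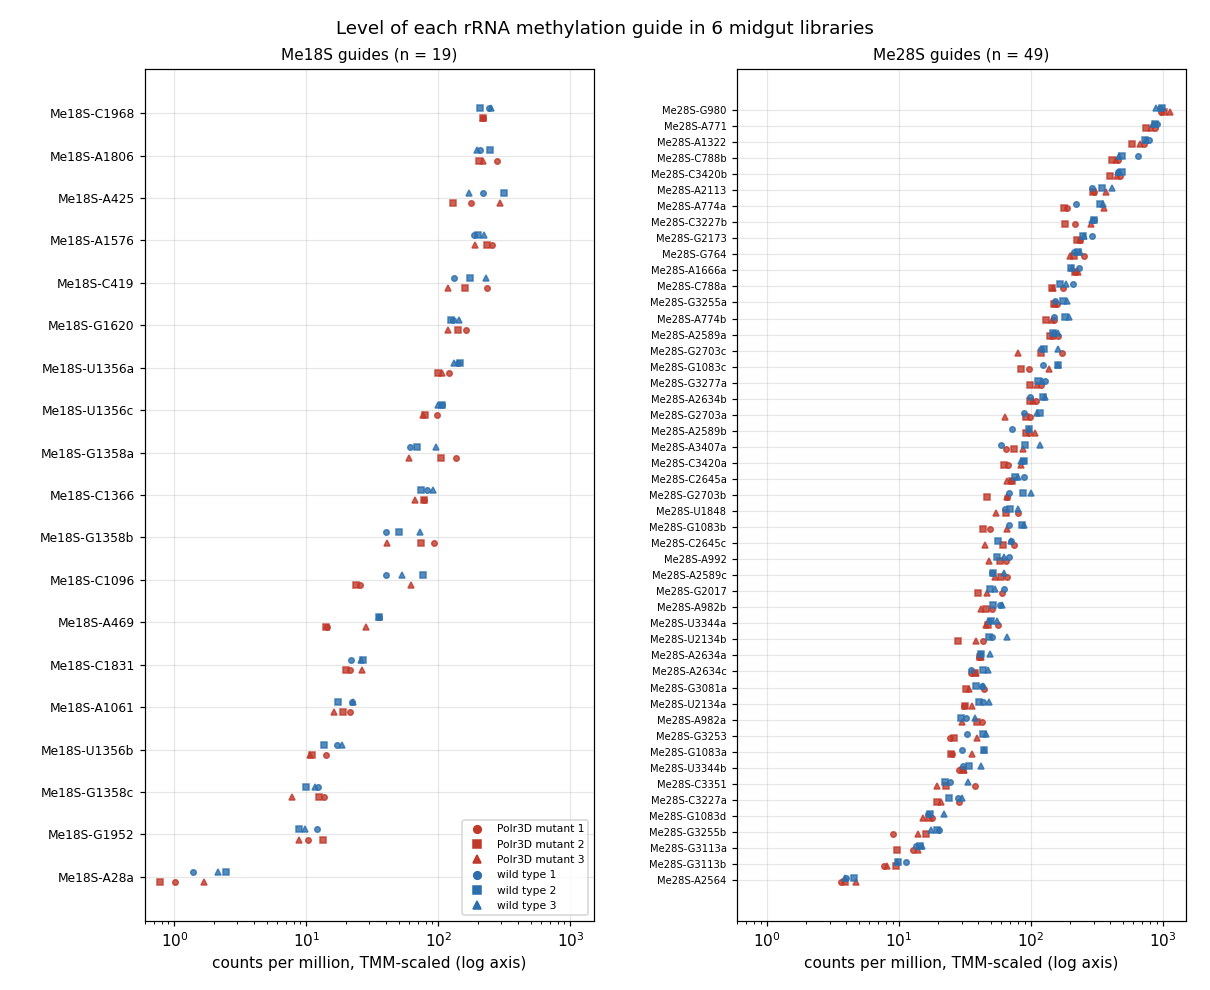
Each point is the TMM-scaled level of 1 guide in 1 library, in CPM on a log axis, with Me18S guides on the left and Me28S guides on the right, ordered by their mean. Mutant libraries are red and wild-type libraries blue, and for most guides the 6 points lie close together beside the spread from Me18S-A28a to Me28S-G980.

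Me28S-G980, the most abundant guide, lies in an intron of sta, the gene of a small-subunit ribosomal protein (chromosome X, 1482559 to 1482629, minus strand, BDGP6). It was at 968, 1018 and 1137 CPM in mutant replicates 1, 2 and 3 and at 964, 997 and 888 CPM in the wild-type replicates. These ranges overlapped. Per 100 bases it stood above Me28S-A771, the next guide, in every library, and the ranges of the 2 guides per 100 bases had no overlap. Me28S-A771 lies in an intron of Sf3b3, which encodes a splicing factor of the U2 snRNP (chromosome arm 3L, 830437 to 830511, minus strand), and was at 880, 745 and 815 CPM in the mutant and 903, 881 and 850 CPM in the wild type. Me28S-A1322, in an intron of the translation elongation factor gene eEF1alpha1 (2R, 11893123 to 11893195, plus strand), was at 722, 591 and 671 against 796, 733 and 746 CPM. For this guide all 3 mutant libraries lay below all 3 wild-type libraries, although the gap was small beside the level.

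Me28S-C788b follows in the order by length, with 459, 411 and 443 CPM in the mutant and 649, 497 and 466 CPM in the wild type, again without overlap. It lies in an intron of lncRNA:CR45184, a noncoding host, at a place that Sf3b3 also spans on the same strand (3L, 827075 to 827144, minus strand). Me28S-C3420b was at 479, 401 and 451 against 458, 496 and 463 CPM. Its range overlapped between genotypes, and it lay below Me28S-C788b with no overlap per length. Me28S-A2113 of RpL30 (2L, 19008611 to 19008683, minus strand) was at 305, 297 and 373 against 291, 349 and 414 CPM. In CPM it was below Me28S-C3420b in every library. Per 100 bases it was below Me28S-C3420b in 4 of 6 libraries only, so per length this pair did not differ beyond its spread.

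Me28S-A774a of RpS12 (3L, 13024226 to 13024298, plus strand) was at 188, 179 and 357 CPM in the mutant and 222, 334 and 352 CPM in the wild type, and Me28S-C3227b of Uhg5 (2R, 14622330 to 14622409, plus strand) at 216, 182 and 289 against 302, 304 and 292 CPM. In both, mutant replicate 3 was the highest mutant library. Me28S-G2173 of RpS16 has nearly the same level per length as Me28S-A774a, 372 against 373 CPM per 100 bases, and the order of the 2 changed from library to library. The 8 guides of highest CPM, all Me28S guides, held 46.6% ± 2.43 (SD, n = 3) of the guide counts in the mutant and 46.3% ± 1.66 for wild-type libraries. None of the 8 passed the test between genotypes: their fitted log2 fold changes (mutant over wild type) ran from -0.38 for Me28S-C3227b (SE 0.17, adjusted p = 0.331) to 0.13 for Me28S-G980 (SE 0.13, adjusted p = 0.608, edgeR). Without mutant replicate 3 both Me28S-A774a and Me28S-C3227b passed it, at -0.71 and -0.58 with an adjusted p of 0.0668 each (edgeR), where Me28S-A774a had been at -0.33 with all 6 libraries. The sign for Me28S-G980 turned to -0.04 when libraries were scaled by their totals alone and to -0.06 when they were scaled on mitochondrial tRNAs.

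At the low end were Me18S-A28a and Me28S-A2564, both named here after their values were seen. Me18S-A28a, in the last of the listed Uhg1 introns, was at 1.01, 0.780 and 1.68 CPM in the mutant and 1.38, 2.46 and 2.15 CPM in the wild type, which overlapped. Me28S-A2564, at 46 bases the shortest guide, was at 3.68, 3.90 and 4.78 against 4.01, 4.59 and 3.96 CPM. Both passed the filter on low counts, as did all 68 guides.

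By position in the genome 67 of the 68 guides lay within a host gene on the same strand, 29 hosts in all. For 58 of them every spanning host transcript had an intron there, and for the other 9 the place was an intron or an exon depending on the host transcript. The exception was Me18S-A1806 (3L, 7639717 to 7639794, plus strand), which no annotated protein-coding or noncoding RNA gene on its strand spans. Genes on the other strand were not searched. Me18S-A1806 was among the higher Me18S guides, at 278, 202 and 218 CPM in the mutant and 206, 244 and 196 CPM in the wild type. The 7 Uhg genes carried 29 guides and 26.2% of the summed guide CPM, and 12 ribosomal protein genes carried 18 guides and 34.3%. Another 9 protein-coding genes carried 16 guides and 29.9%, and lncRNA:CR45184 carried 4 guides and 7.25%. Chromosome arm 2R held 31 guides, 3L 19, 3R 8, 2L 7 and the X chromosome 3.

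Guides cut from the same host differed widely in level. Uhg5, with 10 guides the host that carries most, ran from 13.8 CPM per 100 bases for Me18S-G1952 to 330 for Me28S-C3227b, a 23.9-fold range. Uhg1 ran from 2.36 for Me18S-A28a to 299.8 for Me28S-A1666a, 127-fold, and lncRNA:CR45184 from 11.2 for Me28S-G3113b to 696 for Me28S-C788b, 62.1-fold. In Uhg2, by contrast, the 2 guides were 1.06-fold apart, in Uhg3 1.2-fold and in RpL13A 1.17-fold. The 4 guides of lncRNA:CR45184 and the 3 of Uhg7 also lie within Sf3b3 or RpL23A on the same strand and were counted under the shorter gene.

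**Figure D2:**
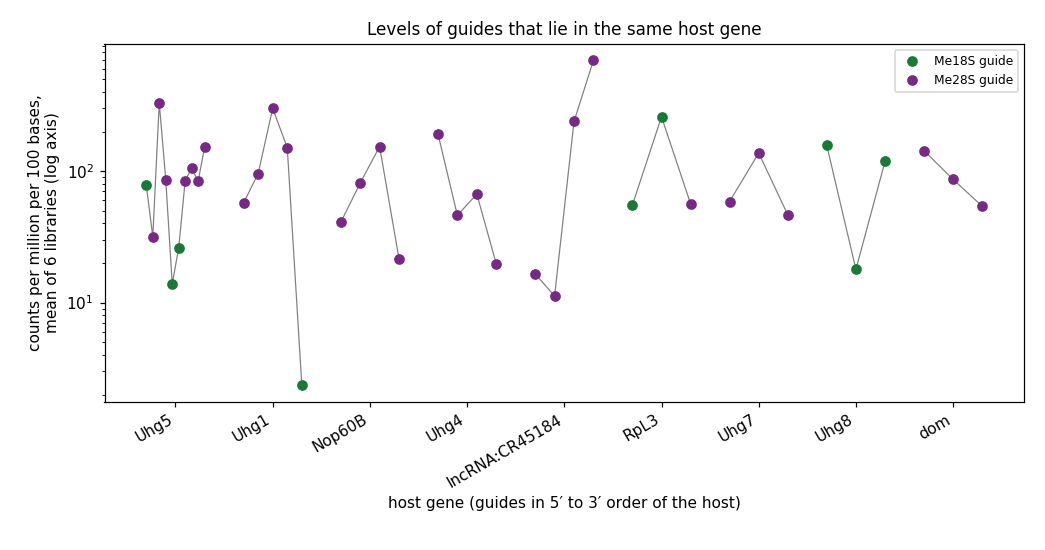
Level of each guide per 100 bases, in CPM averaged over 6 libraries on a log axis, for the 9 hosts with 3 or more guides, in 5′ to 3′ order along each host. Green points are Me18S guides and purple points Me28S guides, and the lines within a host run up and down over as much as 127-fold in Uhg1.

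The 68 guides stand for 45 named target bases, 15 in 18S rRNA from position 28 to 1968 and 30 in 28S rRNA from position 764 to 3420. The target was A for 17 bases, G for 14, C for 10 and U for 4. A single listed copy served 29 of them, 2 copies served 10, 3 copies served 5, and 4 copies served Me28S-G1083. Neighbouring target bases could be served from different hosts: 18S U1356 and G1358 are 2 bases apart, the guides of the first lying in Uhg8 and those of the second in drn and RpL15, and 28S G980 and A982, also 2 apart, are served from sta and Uhg4. The level per length was 1402 CPM per 100 bases for the single guide of G980 and 46.1 and 67.0 for the 2 guides of A982. Other close pairs were 28S A771 and A774, 3 apart, and 28S G3253 and G3255, 2 apart.

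Copies named for the same base were seldom at the same level. The 3 copies for 18S U1356, all 79 bases long and in successive introns of Uhg8, averaged 124, 14.1 and 93.9 CPM. Me28S-C3227b averaged 264 CPM against 25.3 for Me28S-C3227a of the same length, and Me28S-G3255a was at 192 CPM per 100 bases against 19.7 for Me28S-G3255b. The ratio of copies within a library does not depend on the scaling of libraries, and several ratios held nearly still. Me18S-G1358a over Me18S-G1358b, both in drn, was between 1.33 and 1.51 in all 6 libraries, although both moved together by more than 2-fold between libraries, and Me18S-U1356a over Me18S-U1356c was between 1.23 and 1.38. Of the 31 ratios of copies for 1 base, 2 had no overlap between genotypes, and both pairs are named after their values were seen. For scale, the levels of single transcripts separated with the mutant below for 44 and above for 33 of the 411 tested. Whether 2 of 31 is more than the spread between libraries gives was not tested. Me28S-A982b over Me28S-A982a, both 77 bases long and in Uhg4, was 1.18, 1.16 and 1.40 for mutant libraries and 1.79, 1.75 and 1.58 for wild-type libraries. Me28S-G1083c over Me28S-G1083b was 1.98, 1.93 and 2.09 for mutant libraries and 1.79, 1.88 and 1.79 for wild-type libraries. Reads that match several copies are divided among them by the quantification, so the division among copies is less certain than their sum, and how alike the copies are in sequence was not analysed here.

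Me28S guides outweighed Me18S guides in every library. Their summed counts were 3.81, 4.12 and 4.53 times those of the Me18S guides in the mutant and 4.63, 4.22 and 4.35 times in the wild type. As log2 of the Me18S sum over the Me28S sum, the values were -1.93, -2.04 and -2.18 in the mutant and -2.21, -2.08 and -2.12 in the wild type. The ranges overlapped and the difference of 0.09 was within the spread between libraries (exact permutation test, two-sided p = 0.4, Benjamini-Hochberg adjusted p = 0.4 over the 2 such tests made). The Me18S share of guide counts was 19.5% ± 1.35 in the mutant and 18.5% ± 0.720 for wild-type libraries (SD, n = 3).

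Together the guides made up a smaller part of the mutant libraries. They held 0.916%, 0.759% and 0.873% of library counts in the mutant and 1.08%, 1.02% and 1.02% in the wild type, with no overlap. The means were 0.850% ± 0.0812 and 1.04% ± 0.0350 (SD, n = 3), a difference of -0.193 percentage points (exact permutation test, two-sided p = 0.1, the smallest that 3 against 3 libraries allow, adjusted p = 0.2). Both rRNA classes had this order, with Me18S guides at 0.166% ± 0.0221 against 0.193% ± 0.00222 and Me28S guides at 0.684% ± 0.0636 against 0.850% ± 0.0359. Shares of a library move with each other. The share of the H/ACA guides, which direct pseudouridylation of rRNA, was 0.823% ± 0.0194 in the mutant and 0.974% ± 0.0430 for wild-type libraries, that of nuclear tRNAs 15.3% ± 0.809 against 10.9% ± 0.321, and that of the 5.8S rRNA 37.0% ± 1.59 against 44.4% ± 0.621. With 5.8S and 5S rRNA left out of the total, the guide share differed by -0.751 percentage points (exact permutation test, two-sided p = 0.1). The part of these lists in the lower guide share was not tested beyond that. Within the counts of all snoRNAs the methylation guides held 40.6% ± 1.57 in the mutant and 41.4% ± 0.481 for wild-type libraries, which overlapped.

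**Figure D3:**
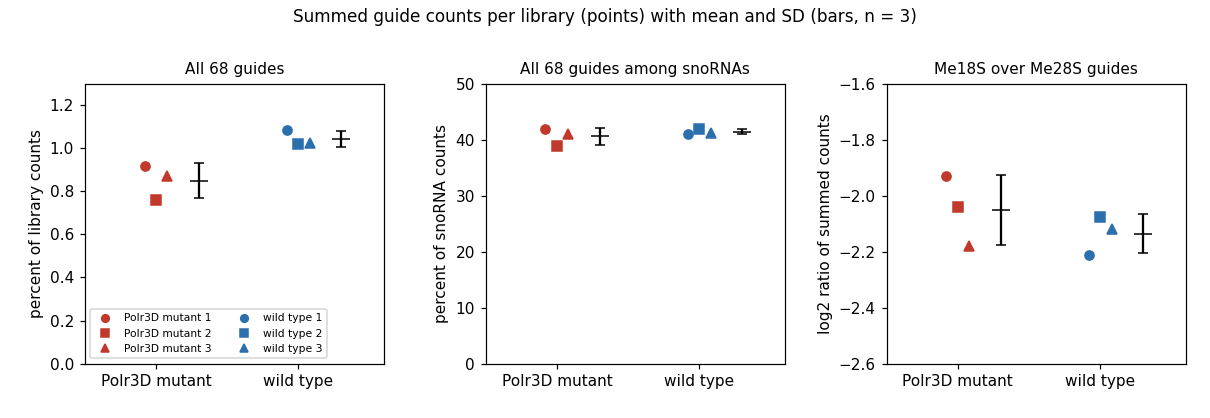
Summed counts of the 68 guides in each library as a percent of all counts (left), as a percent of snoRNA counts (middle), and as log2 of the Me18S sum over the Me28S sum (right), with the mean and SD of 3 libraries beside the points. The genotypes separate in the left panel, at 0.759% to 0.916% against 1.02% to 1.08%, and overlap in the other panels.

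Guide by guide, the mutant was below the wild type more often than above it, but no guide passed the test. At an adjusted p of 0.10 over the 411 transcripts tested (edgeR quasi-likelihood test, Benjamini-Hochberg), 0 of 68 guides were called, where 1.22% of all transcripts were. At an unadjusted p under 0.05 there were 9 guides, all lower in the mutant (13.2%, against 5.35% of all transcripts), 3 of them Me18S and 6 Me28S guides. The fitted value was below 0 for 56 of 68 guides (82.4%, against 55.5% of all transcripts), 12 of 19 Me18S and 44 of 49 Me28S guides. The median log2 fold change was -0.13 over the Me18S guides, -0.18 over the Me28S guides and -0.05 over all transcripts tested. Single values ran from -0.91 for Me18S-A469 to 0.40 for Me18S-G1358a, and across guides Pearson's r between length and log2 fold change was 0.019.

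All 3 mutant libraries lay below all 3 wild-type libraries for 15 guides (22.1%, against 10.7% of all transcripts), and all 3 lay above for none (against 8.03%). The 15 were 3 Me18S and 12 Me28S guides. The split depended on the scale. With libraries scaled by totals alone 66 guides (97.1%) were fitted lower (73.5% of all transcripts) and 33 (48.5%) lay below in every mutant library (28.2% of all), and 4 guides were called lower at an adjusted p of 0.10 (1.95% of all). Relative to the H/ACA rRNA guides 50 (73.5%) were fitted lower (46.7% of all), 6 (8.82%) lay below in every mutant library (5.84% of all) and 0 were called (11 of all 411 transcripts). The counts of guides fitted lower and of separated guides under these scales were added after the data were seen. Members of a list share libraries and scaling and are not replicates, so the counts describe these 6 libraries.

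**Figure D4:**
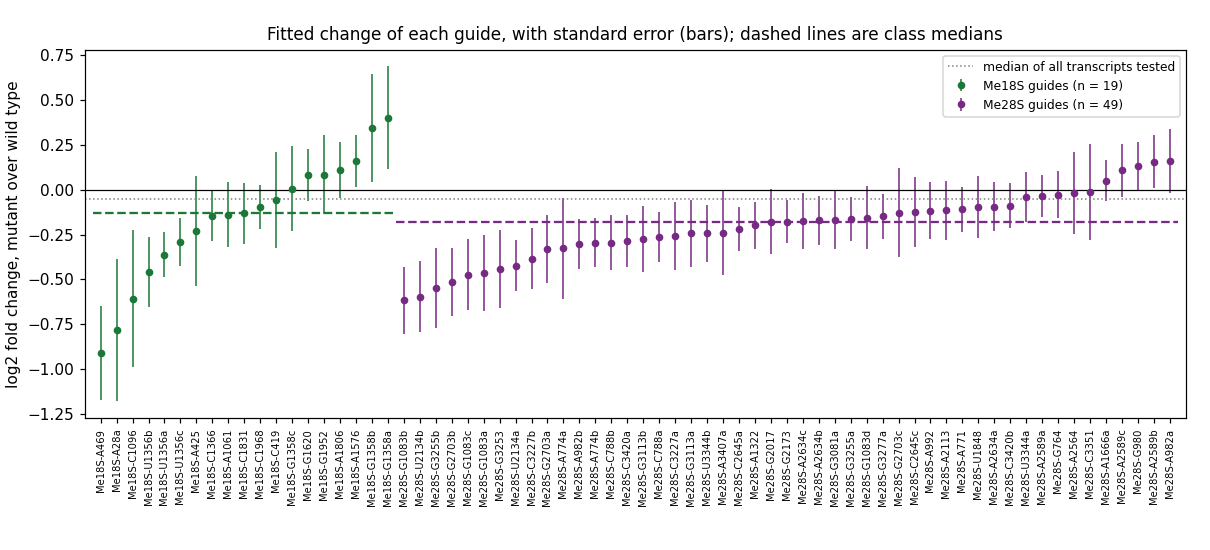
Fitted log2 fold change of each guide, mutant over wild type, with its standard error, sorted within the 19 Me18S guides (green) and the 49 Me28S guides (purple). Dashed lines mark the class medians of -0.13 and -0.18 and the dotted line the median of -0.05 over all transcripts tested, and 56 of 68 points lie below 0.

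Me18S-A469 had the lowest fitted value of the 68. It lies in an intron of pths (2L, 21143854 to 21143941, plus strand) and was at 14.4, 14.05 and 28 CPM in the mutant and 35.2, 35.2 and 35.7 CPM in the wild type. The wild-type libraries were close together, all mutant libraries lay below them, and mutant replicate 3 lay between the other mutant libraries and the wild type. The fitted log2 fold change, -0.91 (SE 0.26, unadjusted p = 0.00697, adjusted p = 0.180, edgeR), was short of the threshold. With DESeq2, the tool of the study, it was -0.88 with an adjusted p of 0.0346, and without mutant replicate 3 it was -1.30 with an adjusted p of 0.00686 (edgeR). Over all alternatives its adjusted p ran from 0.00686 to 0.428.

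The guides for 28S G1083 are 4 copies of 83 or 84 bases in Nop60B (2R, from 24184840 for the first to 24185644 for the last, plus strand), the gene of the fly dyskerin, which is itself the pseudouridine synthase of H/ACA particles. Me28S-G1083b was at 49.4, 43.6 and 66.4 CPM in the mutant and 68.9, 85.6 and 89.9 CPM in the wild type, without overlap (log2 fold change -0.62, SE 0.19, adjusted p = 0.193 with edgeR and 0.0784 with DESeq2). Me28S-G1083a was at 25.3, 24.97 and 36.0 against 30.2, 44.7 and 44.1 CPM, and Me28S-G1083c at 97.8, 84.0 and 139 against 124, 161 and 161 CPM. In these 3 copies mutant replicates 1 and 2 were the lowest libraries, and mutant replicate 3 reached into or near the wild-type range. Me28S-G1083d did not share the pattern, at 18.1, 17.1 and 15.4 against 16.8, 17.3 and 22.2 CPM. The fitted log2 fold changes of a, c and d were -0.46, -0.47 and -0.16, with adjusted p of 0.337, 0.322 and 0.641 (edgeR). Without mutant replicate 3 copies a, b and c were called, at -0.64, -0.80 and -0.69.

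Me28S-U2134b, in RpL13A (3R, 5625178 to 5625254, plus strand), was at 43.8, 28.03 and 38.4 CPM in the mutant and 51.0, 48.7 and 66.8 CPM in the wild type. Its partner Me28S-U2134a, in the same host, was at 31.1, 31.9 and 35.8 against 43.9, 40.5 and 48.2 CPM. Neither overlapped between genotypes. Their log2 fold changes were -0.60 (SE 0.20) and -0.43 (SE 0.14), both with an adjusted p of 0.235 (edgeR). Me28S-G3255b of Uhg4 (2R, 9096763 to 9096844, plus strand) was at 9.03, 16.1 and 14.1 against 20.2, 19.6 and 17.8 CPM, again without overlap (log2 fold change -0.55, SE 0.22, adjusted p = 0.310). Its copy Me28S-G3255a, 9.77-fold higher per length, was at 159, 151 and 153 against 154, 175 and 189 CPM, which overlapped.

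**Figure D5:**
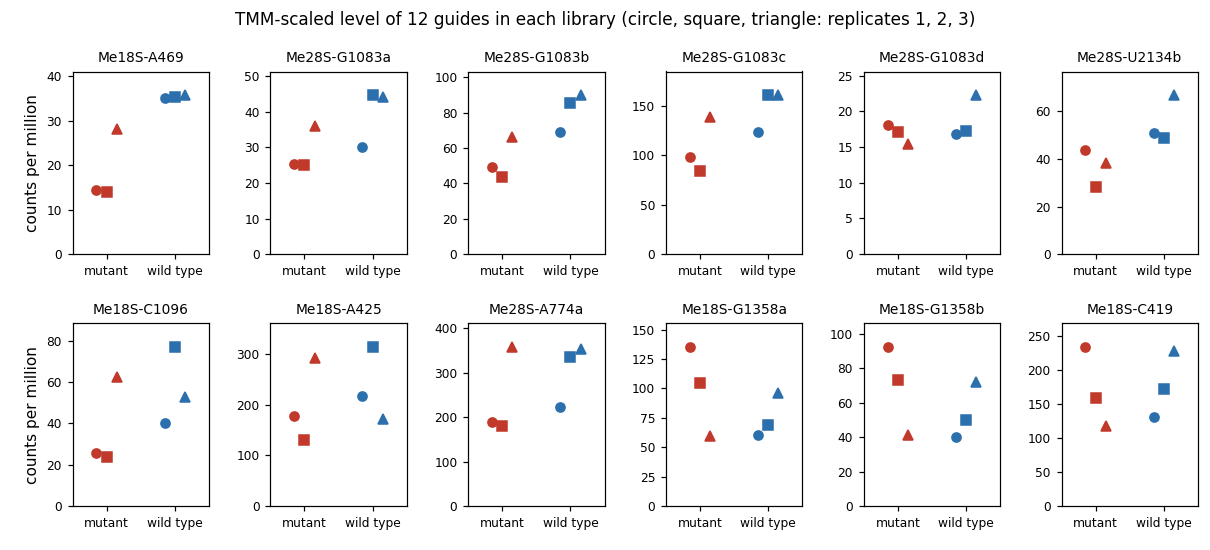
TMM-scaled level of 12 guides in each library, in CPM on axes that start at 0, with mutant libraries in red and wild-type libraries in blue. In the panels of Me18S-C1096, Me18S-A425 and Me28S-A774a the triangle of mutant replicate 3 lies far above the other mutant libraries. In those of Me18S-G1358a and Me18S-G1358b it lies far below them. In the panel of Me18S-C419 it is the lowest mutant library, while mutant replicate 1 lies at least as far above the others.

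Several guides in which mutant replicate 3 departed from the other mutant libraries were named after their values were seen. Me18S-C1096 of RpL3 was at 25.4 and 23.6 CPM in mutant replicates 1 and 2 and 62.2 CPM in replicate 3, against 40.0, 76.8 and 52.8 CPM in the wild type. Me18S-A425 of the same host was at 178 and 129.7 against 293 CPM, with 218, 314 and 171 CPM in the wild type. These 2 guides were also high together in wild-type replicate 2, while Me28S-G2017, the other RpL3 guide, was at 60.4, 40.1 and 46.6 CPM in the mutant and 63.2, 49.6 and 53.8 CPM in the wild type and was high in neither. In the other direction, the drn guides Me18S-G1358a and Me18S-G1358b were at 135 and 104 CPM and at 92.1 and 73.2 CPM in mutant replicates 1 and 2, and at 59.4 and 41.1 CPM in replicate 3. Their wild-type values were 60.8, 68.8 and 96.2 CPM and 40.3, 50.1 and 72.1 CPM. Mutant replicates 1 and 2 thus lay above every wild-type library for both guides, and replicate 3 at the low end of the wild-type values or below it. Me28S-G2703c was at 172 and 121 against 80.9 CPM, with 120.5, 127 and 161 CPM in the wild type. The RpL15 guide Me18S-C419 was at 234 and 159 against 118 CPM, with 131, 172 and 228 CPM in the wild type. For this guide mutant replicate 1 departed as much: on the log2(CPM + 1) scale it lay 0.76 above the mean of the other mutant libraries. Replicate 3 lay 0.70 below theirs.

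Leaving out mutant replicate 3 raised the number of guides called from 0 to 10. Lower in the mutant were 9 of them (13.2%, against 4.8% of all transcripts in that fit): Me18S-A469, Me18S-C1096, Me28S-A774a, Me28S-G1083a, Me28S-G1083b, Me28S-G1083c, Me28S-U2134a, Me28S-C3227b and Me28S-G3253. Higher was 1, Me18S-G1358a, at 0.69 (1.47%, against 6.47% of all transcripts). Fitted values below 0 then numbered 48 of 68 (70.6%, against 54.2%), and both remaining mutant libraries lay below the wild type for 26 guides (38.2%, against 20.0% of all transcripts) and above it for 5 (7.35%, against 16.1%). The median over the Me28S guides was -0.17 in that fit and that over the Me18S guides -0.06. Leaving out any of the other 5 libraries gave 0 guides called. Over all transcripts, those fits called 12 without mutant replicate 1, 1 without mutant replicate 2 and 0 without any single wild-type library. No label gives a reason to set this library aside, and its part in the result was not tested beyond leaving it out.

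Summing the copies of a target base, so that reads divided among copies no longer matter, gave similar shares. None of the 45 target bases was called (1.29% of the 388 items tested were), 5 had an unadjusted p under 0.05, all lower (11.1%, against 4.64%), and 37 were fitted lower (82.2%, against 53.9%). All 3 mutant libraries lay below for 10 (22.2%, against 10.1%) and above for none. The pair for 28S U2134 summed to 74.8, 59.9 and 74.2 CPM in the mutant and 94.9, 89.2 and 115 CPM in the wild type (edgeR log2 fold change -0.52, SE 0.15, adjusted p = 0.168). DESeq2 called this pair at an adjusted p of 0.0613, together with Me18S-A469, which made 2 bases lower (4.44%, against 1.03%). Among single transcripts DESeq2 called 2 guides (2.94%, against 0.973%), Me18S-A469 and Me28S-G1083b, so only Me18S-A469 was called both ways. Each U2134 copy alone had an adjusted p of 0.113 and the summed G1083 copies 0.214 (DESeq2). Without mutant replicate 3, 6 bases were called lower (13.3%, against 4.31%).

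At the level of hosts, 3 cases show how guides from 1 transcript compared. The 3 Uhg8 guides, all for 18S U1356, summed to 232, 189 and 193 CPM in the mutant and 264, 266 and 247 CPM in the wild type, and each had a negative fitted value, from -0.46 to -0.29. The 10 Uhg5 guides summed to 839, 695 and 715 against 857, 886 and 962 CPM, without overlap, yet single guides ran from -0.52 for Me28S-G2703b to 0.08 for Me18S-G1952. In dom, which encodes a chromatin-remodelling ATPase, the 3 guides for 28S A2589 summed to 326, 293 and 309 against 275, 298 and 322 CPM, which overlapped, with fitted values from -0.03 to 0.16. Over kinds of host the median log2 fold change was -0.17 for the 29 guides of Uhg genes, -0.18 for the 18 of ribosomal protein genes, -0.10 for the 16 of other protein-coding genes and -0.27 for the 4 of lncRNA:CR45184.

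Beside the other short RNAs of the table, the methylation guides lay close to the H/ACA guides of rRNA. Of 102 H/ACA guides tested 0 were called and 80 were fitted lower, with a median log2 fold change of -0.15, and 22 (21.6%) lay below in every mutant library, a share like the 22.1% of the methylation guides. By class the H/ACA medians were -0.16 over 44 guides of 18S rRNA and -0.13 over 58 of 28S rRNA. The 73 remaining snoRNAs tested had a median of -0.09, the 80 nuclear tRNAs 0.34 and the 22 mitochondrial tRNAs 0.25. A difference between these lists was not tested.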

How the data were processed

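Short RNAs of 6 midgut libraries, 3 Polr3D EY/+ and 3 wild type by their labels and the study's description, were analysed. RNA below 200 nucleotides had been size selected and treated to remove methyl groups, by the study's protocol. Paired reads were trimmed by the authors (Cutadapt, version 2.10) and assigned to the fly transcriptome (BDGP6, release 32) by Salmon, version 0.13.2, with genomic decoys. The deposited values are the authors' estimated counts per transcript shorter than 300 bases, as whole numbers with no scaling for depth. A read that fits several transcripts is shared out by Salmon. Size selection alters recovery by length, and incomplete demethylation lowers counts of heavily modified RNAs. At this depth counting error is small beside the spread between libraries, and without molecular identifiers PCR duplicates are not separate molecules.

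By identifier, 527 transcripts of the table were matched to the BDGP6 annotation (release 54), from which symbols, coordinates (counted from 1) and hosts were taken. Differential expression was tested on the whole table with edgeR (version 4.0.16, R 4.3.3): filterByExpr (minimum count 10, minimum total 15), TMM scaling, and the quasi-likelihood test with genotype as the only term, at a Benjamini-Hochberg adjusted p of 0.10 over 411 transcripts, the false discovery rate of the study. Standard errors of log2 fold changes came from the F statistic. Counts of copies named for 1 base were also summed and fitted over 388 items. Single values per library were compared by exact permutation with SciPy (version 1.17.1). All tests were two-sided. Distances of a library from the others of its genotype used a pseudocount of 1. Tested on simulated data of 411 transcripts for this comparison, the test called 94.0% of 2-fold and 100% of 4-fold changes and 6.64% of unchanged transcripts. The simulation changed 100 transcripts 2-fold and 100 4-fold and left 211 unchanged. In the real data 5 were called, and many true changes ease the adjusted threshold. These shares thus do not show how often a 2-fold change of a guide would be missed here.

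Guides named by rule were the 8 of highest mean CPM, up to 4 with the largest rise and 4 with the largest fall among those whose genotypes did not overlap, those past the threshold in the main test, with DESeq2 or with the replicate block, and the copies of the target base with most copies. No guide met the rule for a rise and none passed the main test. All other guides were named after their values were seen. The members and lists were chosen with earlier results of these data known.

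Alternatives were DESeq2 (version 1.42.0), limma-voom (limma version 3.58.1), library totals, H/ACA guides or mitochondrial tRNAs as the scale, no filter, the replicate number as a block, and leaving out each library in turn. Counts of guides fitted lower or separated were recomputed under other scales and without mutant replicate 3, which was added after seeing the data. Replicates of a genotype differed by far more than sampling noise (chi-square over its degrees of freedom, 212 to 1409), so each library counted once. The hosts of some guides are not reported here. Guide sequences, their motifs and their pairing with rRNA were not analysed here.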

Additional observations from a re-analysis of the deposited data

How the results depend on the processing

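The count of guides called, 0 in the edgeR test, became 2 with DESeq2, 4 with library totals alone, and 1 each with mitochondrial tRNAs as the scale, with no filter on low counts, and with the replicate number as a block. It stayed 0 with limma-voom and with the H/ACA guides as the scale, and ran from 0 to 10 when 1 library was left out. Target bases called, also 0, became 2 with DESeq2 and with library totals alone, 1 each with mitochondrial tRNAs, no filter and the replicate block, and 0 to 7 with 1 library left out, where 7 came without mutant replicate 3. Over all transcripts the count called was 5 in the main test, 30 with DESeq2, 16 with library totals, 16 with no filter, 14 with the block, 0 with limma-voom and 47 without mutant replicate 3. That count was 11 with the H/ACA guides as the scale, 7 with mitochondrial tRNAs, and 0 to 12 with any other library left out. The median log2 fold change of the Me18S guides moved from -0.13 to -0.30 with library totals and -0.32 with mitochondrial tRNAs, and that of the Me28S guides from -0.18 to -0.35 and -0.37. These scales moved the median of all transcripts from -0.05 to -0.22 and -0.24, so that relative to it the Me28S median stayed at -0.13, -0.13 and -0.12. For single guides named by rule 177 values under an alternative had the same sign and side of the threshold, 14 passed it with the same sign and 4 turned sign: Me28S-G980 to -0.039 with library totals and -0.064 with mitochondrial tRNAs, Me28S-A2113 to 0.017 without wild-type replicate 3 (-0.23 to 0.017 over the libraries left out in turn) and Me28S-C3420b to 0.00051 without mutant replicate 2 (-0.15 to 0.00051). The cause was not tested. The difference in guide share was -0.193 percentage points paired by replicate number (exact sign-flip test, p = 0.25, the smallest that 3 pairs allow), with -0.167, -0.262 and -0.151 in the pairs, and -0.227 to -0.148 with 1 library left out. The 18S to 28S ratio gave 0.09 with the pairing (p = 0.75, exact sign-flip test) and 0.03 to 0.15 with 1 library left out. Same-numbered libraries shared no deviation, with correlations of -0.0228, -0.256 and -0.199, which cannot show whether they were prepared together. The guide called under the block was Me18S-A469, at an adjusted p of 0.0912 (edgeR). It was also the guide called with mitochondrial tRNAs as the scale (0.0547, edgeR) and with no filter (0.0755, edgeR). DESeq2, library totals and the fit without mutant replicate 3 called it as well, among other guides. Leaving out 1 library gives 2 against 3, where an exact permutation test cannot go below p = 0.2. Guides at a few CPM, such as Me18S-A28a, rest on few counts, and small differences there were not detectable at this depth.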
